A study of Mus musculus with 28 samples.

Results

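The interferon response and RNA sensing genes are a list of 40 genes, followed here through mouse embryonic stem (ES) cells that lack Dicer, regained it, or carry a mutant of it. A gene was represented by the deposited probe set that the platform annotation pairs with its symbol alone, and by the one with the highest mean over all 28 arrays where it had several. Of the 40 genes, 35 had such a probe set, 4 (Isg15, Irgm2, Igtp and Gbp2) had only probe sets shared with other genes, and 1 (Ifi44) had none under its symbol. Genes whose mean lay under a log2 level of 6.42, the 30th percentile of the 19938 genes on the arrays, were left out of the tests. This left 21 of the 40 genes among 13956 tested genes, and the other 14 with a probe set are called dim below. Counts over the 21 describe the genes that passed this filter and not the list of 40. The list was chosen with earlier results of these data known, so such counts beside those of all tested genes are no test of it.

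DICER1 is the ribonuclease that cuts microRNAs (miRNAs) from their hairpin precursors, and the series asked how hotspot mutations of DICER1 affect that processing. Mutant DICER1 was carried by Dicer-/- ES cells as D1709A (n = 4 arrays), E1705K (n = 3) and D1810Y (n = 3) in the pLD-puro-ENvA vector, and as D1709N (n = 2) and E1813Q (n = 2) in the pLD-puro-PGKnvA vector. The same Dicer-/- cells carried wild-type DICER1 (n = 6, of which 4 in ENvA and 2 in PGKnvA) or eGFP in ENvA (n = 3). The Dicer-/- line without a transgene (Dicer-null, n = 3) and a Dicer+/+ line (Dicer WT, n = 2) were the parental lines. All groups other than Dicer WT therefore lack Dicer of their own, and 1 line stands for each genotype. Clones, feeder cells and separate cultures of replicates are not mentioned in the labels. A p-value here therefore rests on array-to-array spread alone, and part or all of that spread may be technical.

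Cells sense viral RNA through helicases such as RIG-I and MDA5, which signal through the adaptor MAVS, and through kinases, OAS enzymes and Z-nucleic-acid sensors that bind double-stranded RNA. Signalling leads to interferons, whose receptors act through STAT proteins and IRF9, and these factors induce many antiviral genes through a promoter element, the interferon-stimulated response element (ISRE). Mouse ES cells are known for a weak interferon response, and Dicer also cuts long double-stranded RNA.

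The element was looked for in the promoters of the list, which holds both interferon-induced genes and genes of sensing and signalling. The core of the ISRE was searched on both strands as GAAA, any 2 bases and GAAA again, in the 250 bases before the annotated start of each gene (RefSeq, GRCm38.p6). Of the 40 genes, 32 had an entry in the table, and 14 of these 32 (43.8%) held the core, against 936 of all 27025 genes (3.46%). Among the 19 tested genes with an entry, 6 held it, namely Irgm1, Oas1a, Oas3, Bst2, Stat2 and B2m. A match describes letters and not a bound site. The windows of Irgm1 and Bst2, 2 genes that moved in opposite directions below, each held 2 cores that share their middle bases. The windows of Mavs and of the segment between Tap1 and Psmb9 held none. They are printed 5′ to 3′ with the matches in capitals, on the strand of the gene, or of Tap1 for the shared segment. The Irgm1 window is chr11:48871421-48871670 (minus strand), that of Bst2 chr8:71537473-71537722 (minus), that of Mavs chr2:131233813-131234062 (plus), and the shared segment chr17:34187331-34187555 (plus).
Irgm1: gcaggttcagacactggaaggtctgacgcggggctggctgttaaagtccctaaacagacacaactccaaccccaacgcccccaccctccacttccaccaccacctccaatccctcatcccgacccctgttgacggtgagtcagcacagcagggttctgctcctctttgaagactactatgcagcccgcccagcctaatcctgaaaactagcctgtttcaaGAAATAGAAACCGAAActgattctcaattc
Bst2: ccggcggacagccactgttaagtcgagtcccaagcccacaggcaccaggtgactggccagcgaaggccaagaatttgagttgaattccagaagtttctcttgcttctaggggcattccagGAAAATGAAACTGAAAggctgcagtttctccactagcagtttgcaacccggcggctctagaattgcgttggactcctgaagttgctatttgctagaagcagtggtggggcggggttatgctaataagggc
Mavs: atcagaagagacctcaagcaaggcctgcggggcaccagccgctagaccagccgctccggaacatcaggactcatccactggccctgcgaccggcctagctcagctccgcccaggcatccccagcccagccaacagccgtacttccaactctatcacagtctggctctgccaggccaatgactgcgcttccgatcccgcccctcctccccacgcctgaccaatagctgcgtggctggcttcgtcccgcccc
Tap1 to Psmb9: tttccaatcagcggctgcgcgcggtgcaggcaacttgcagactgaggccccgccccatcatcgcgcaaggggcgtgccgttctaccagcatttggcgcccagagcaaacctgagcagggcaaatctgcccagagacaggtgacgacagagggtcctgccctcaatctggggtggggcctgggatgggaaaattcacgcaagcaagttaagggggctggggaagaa
The windows of Oas1a, B2m and Stat2 overlap annotated transcribed regions, so only 30 bases around the match are given, with the same capitals. They are chr5:120907526-120907555 (minus strand) for Oas1a, chr2:122147538-122147567 (plus) for B2m and chr10:128270266-128270295 (plus) for Stat2, where the match lies on the opposite strand.
Oas1a: cccttctcggGAAATGGAAACTGAAAatct
B2m: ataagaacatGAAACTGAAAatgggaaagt
Stat2: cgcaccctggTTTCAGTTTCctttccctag

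The identity of the cells was checked first. All 6 ES cell markers were above the filter level in every group, with list means between 11.98 and 12.42 on each array. Single markers still differed. With wild-type DICER1 against eGFP, Zfp42 (0.62) and Tdgf1 (0.12) were called higher and Fgf4 (-0.31) and Nanog (-0.07) lower. In the mutants against wild-type DICER1, Zfp42 (-0.33), Esrrb (-0.25), Nanog (-0.18), Dppa5a (-0.10) and Tdgf1 (-0.08) were called lower, and Fgf4 (-0.08) was not called. Dicer1 read 9.27 ± 0.04 in Dicer-null cells (SD, n = 3) and 10.68 ± 0.05 in Dicer WT cells (n = 2). It read 9.31 ± 0.07 with wild-type DICER1 (n = 6) and 9.39 ± 0.10 with eGFP (n = 3), a change of -0.08 that was not called (adjusted p = 0.227 in limma), and the mutant groups lay between 8.91 and 9.30. The Dicer1 probe set therefore does not show the transgene, and which cells carry one is taken from the labels. Of 8 leukocyte and macrophage markers 2 were above the filter level in 8 of the groups and 3 in D1709N, and Ptprc, which marks leukocytes, lay between 5.33 and 5.50. The 2 above it in every group were the lysosomal genes Laptm5 and Cd68. Both moved in the direction of most called genes of the list, other than Cd68 in eGFP against Dicer-null cells. There Laptm5 differed by -0.55 and Cd68 by 0.17, both called. Laptm5 differed by 0.98 and Cd68 by 0.73 in Dicer-null against Dicer WT cells, by -0.86 and -0.68 with wild-type DICER1 against eGFP, by -0.59 and -0.50 with the mutants against eGFP, and by 0.27 and 0.18 with the mutants against wild-type DICER1, all called. The rest of that list lay under the filter level with wild-type DICER1 and with eGFP, and did not fall. Itgam read 5.76 and 5.43 in these groups, Aif1 5.81 and 5.54, Csf1r 6.29 and 6.12, and Cd14 5.83 and 5.77. Ptprc (5.43 and 5.38) and Lyz2 (5.02 and 4.98) differed less. The mean of 8 fibroblast or feeder markers lay between 6.84 and 7.11 on the wild-type DICER1 arrays and between 6.35 and 6.57 on the eGFP arrays. Among these 8 markers Pdgfrb (1.3), Col1a1 (0.52) and Col1a2 (0.35) were called higher with wild-type DICER1 than with eGFP. Col3a1 (0.15) and Thy1 (-0.01) were not called. Postn read 7.21 with wild-type DICER1 and 4.81 with eGFP, the latter under the filter level. Dcn ran the other way under the filter level, at 5.88 and 6.07 in these groups, and read 6.97 in D1810Y. Lum lay between 3.95 and 4.14 in all groups. Of 6 extraembryonic endoderm markers 4 or 5 were above the filter level in each group, and Afp in none. Gata6 of that list was 1.15 higher with wild-type DICER1 than with eGFP (adjusted p = 2.85e-13 in limma) and differed by -0.82 in the mutants against wild-type DICER1 (adjusted p = 5.53e-14). Of the others, Sox7 was 0.42 higher with wild-type DICER1 than with eGFP, and Gata4 (0) and Foxa2 (-0.06) were not called. In the mutants against wild-type DICER1 Gata4 was lower (-0.17), and Sox7 (-0.17) and Foxa2 (0.01) were not called. The part of these cell type markers in the results was not tested.

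The deposited values obey exact relations between arrays that touch several genes of the list. D1709A and wild-type DICER1 each have an array 4, and its distance from the mean of arrays 1 to 3 is equal in size and opposite in sign in the 2 groups, within 0.000133 for every probe set. The means of the PGKnvA and ENvA wild-type DICER1 arrays are equal within 7.5e-05, and the deviations of the first arrays of 5 groups sum to 0 within 0.000183. Such values are not independent, so the p-values are approximate. Irgm1, for example, read 6.64 on array 4 of D1709A against 7.67 to 7.93 on its arrays 1 to 3, and 7.45 on array 4 of wild-type DICER1 against 6.21 to 6.39 on its arrays 1 to 3. For wild-type DICER1 against eGFP, and for the mutants together and D1709A against wild-type DICER1, both values are given where leaving out the arrays numbered 4 changed a call or moved a called value by over 1.5 times.

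**Figure D1:**
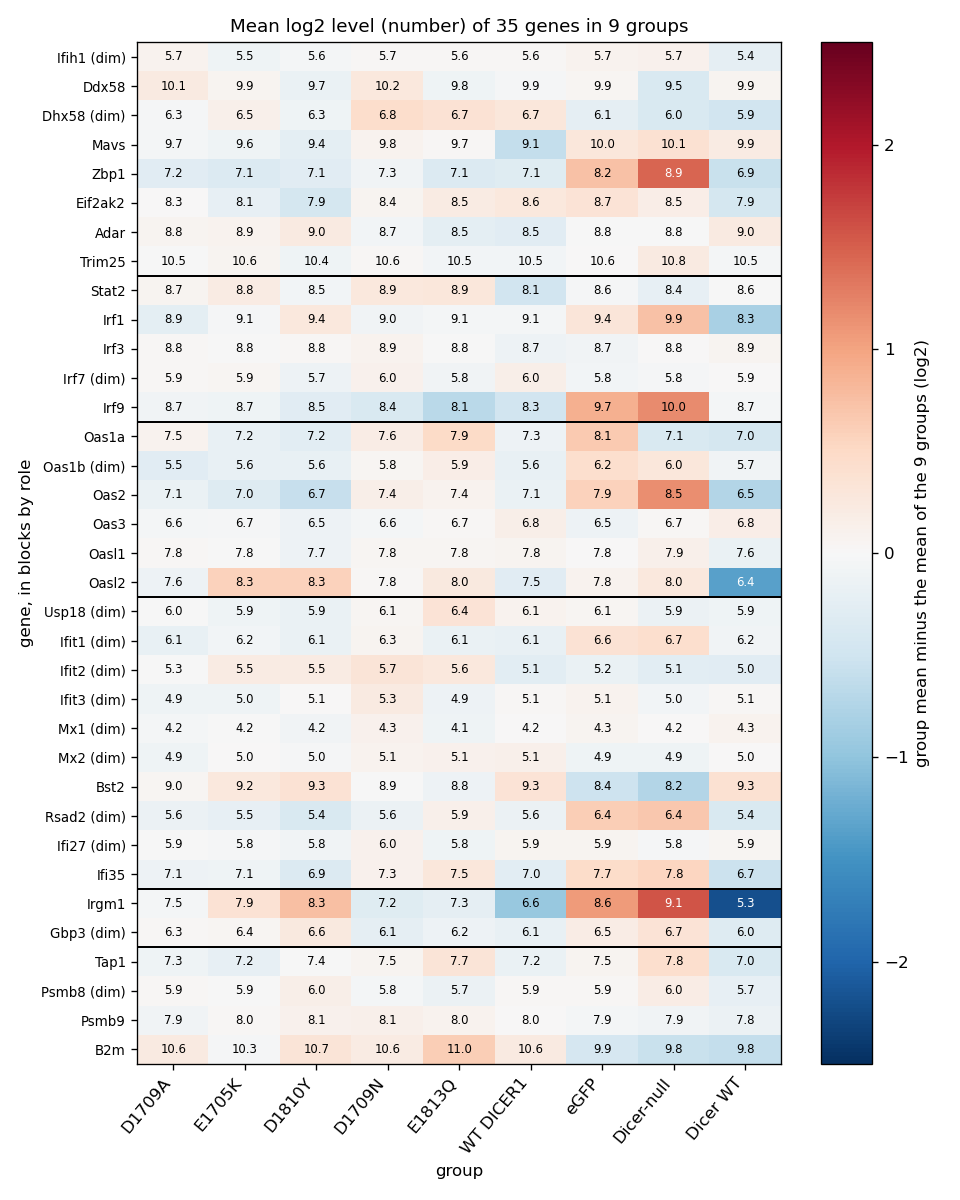
Mean log2 expression of the 35 genes with a probe set of their own, as numbers, in each of the 9 groups, in blocks by role. The colour is the group mean minus the mean of the 9 groups (log2), and dim genes are those under the filter level of 6.42; Irgm1, Zbp1, Oas2 and Irf9 have their highest mean in the Dicer-null line.

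The parental lines were compared to ask how the list differed between cells without and with Dicer. Genes across the list were higher in Dicer-null than in Dicer WT cells, among them the dsRNA-activated enzyme Oas2, the Z-nucleic-acid sensor Zbp1 and the transcription factors Irf1 and Irf9. The membrane protein Bst2 (tetherin), which holds budding virions at the cell surface, was lower. In all, 12 of 21 tested genes were higher, 4 lower and 5 not called at an adjusted p under 0.05, while 57.9% of all tested genes were called, 30.7% higher and 27.2% lower. Of the 21 genes, 8 (38.1%) were called and changed at least 2-fold, against 6.95% of all tested genes. These 8 include Irgm1 and Oasl2, whose Dicer WT means (5.35 and 6.38) lie under the filter level. Both passed the filter through groups where they are higher, so this share is no test of the list. The median change was 0.27 among the 21 genes and 0.01 among all tested genes on the log2 scale. In bulk RNA, fewer cells that express a gene and less of its RNA per cell cannot be told apart.

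Zbp1 read 8.89, 8.82 and 8.97 in Dicer-null cells, against 6.84 and 6.89 in Dicer WT cells, a change of 2.02 (SE 0.0973, adjusted p = 3.36e-15 in limma) or 4.06-fold. Oas2, which makes the second messenger that activates RNase L, read 8.40, 8.52 and 8.47 in Dicer-null cells, against 6.56 and 6.54 in Dicer WT cells (change 1.91, SE 0.0817, adjusted p = 3.42e-16). For both genes every Dicer-null array lay above every Dicer WT array, as 39.2% of all tested genes did. Irf1, a transcription factor that drives basal antiviral and antigen presentation genes, read 9.87, 9.88 and 9.84 in Dicer-null cells, against 8.24 and 8.39 in Dicer WT cells (change 1.54, SE 0.0790, adjusted p = 1.11e-14). A second, dimmer probe set of Irf1 did not show this, with means of 7.07 and 7.02 in the same lines and a range of 6.95 to 7.13 over the 9 groups. Irf9, the DNA-binding subunit of the complex that carries the type I interferon signal, read 9.96, 9.98 and 9.95 in Dicer-null cells, against 8.73 and 8.75 in Dicer WT cells (change 1.22, SE 0.0829, adjusted p = 2.80e-12). Stat2, its partner in that complex, was lower by contrast, at 8.40, 8.42 and 8.41 in Dicer-null cells, against 8.53 and 8.68 in Dicer WT cells (change -0.19, adjusted p = 0.0345). Its call was lost without any 1 Dicer-null array or without the second Dicer WT array, with changes between -0.20 and -0.12 and adjusted p between 0.0569 and 0.341.

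Irgm1, an interferon-inducible GTPase of autophagy and vacuolar defence, read 9.06, 9.12 and 9.17 in Dicer-null cells, against 5.24 and 5.47 in Dicer WT cells (adjusted p = 1.40e-11). Oasl2, an OAS-like protein, read 8.02, 8.01 and 7.96 in Dicer-null cells, against 6.44 and 6.32 in Dicer WT cells (adjusted p = 4.41e-15). The Dicer WT means of both genes, 5.35 and 6.38, lie under the filter level, so no size is given. Ifi35, an interferon-induced protein of the cytosol, read 7.73, 7.86 and 7.75 in Dicer-null cells, against 6.72 and 6.71 in Dicer WT cells (change 1.07, SE 0.107, adjusted p = 3.65e-09). Bst2 ran the other way, at 8.17, 8.27 and 8.22 in Dicer-null cells, against 9.35 and 9.31 in Dicer WT cells (change -1.11, SE 0.0678, adjusted p = 3.20e-13). The groups did not overlap for any of these 4 genes, and 35.5% of all tested genes had every Dicer-null array below every Dicer WT array, as Bst2 had.

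Among the other sensors, Eif2ak2 (PKR, the dsRNA-activated kinase that halts translation) was 0.60 higher in Dicer-null cells, Trim25, a ligase that activates RIG-I, 0.27 higher and Mavs 0.18 higher. The call for Mavs was lost without the first Dicer WT array (0.15, adjusted p = 0.11). Ddx58, which encodes RIG-I, was lower by contrast, with a change of -0.45, and so was Adar, the enzyme that edits adenosine to inosine in double-stranded RNA (-0.23). With Zbp1, 4 of the 6 tested genes of this role were higher and 2 lower, in a comparison where 57.9% of all tested genes were called. Tap1, the peptide transporter of antigen presentation, was 0.79 higher, while Psmb9, an immunoproteasome subunit whose gene starts 225 bases away on the other strand, was not called (0.07, 95% confidence interval -0.11 to 0.26). B2m, the light chain of class I MHC, was not called either (0.05, interval -0.08 to 0.18), nor were Irf3, Oas1a and Oas3, and Oasl1 was 0.30 higher.

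**Figure D2:**
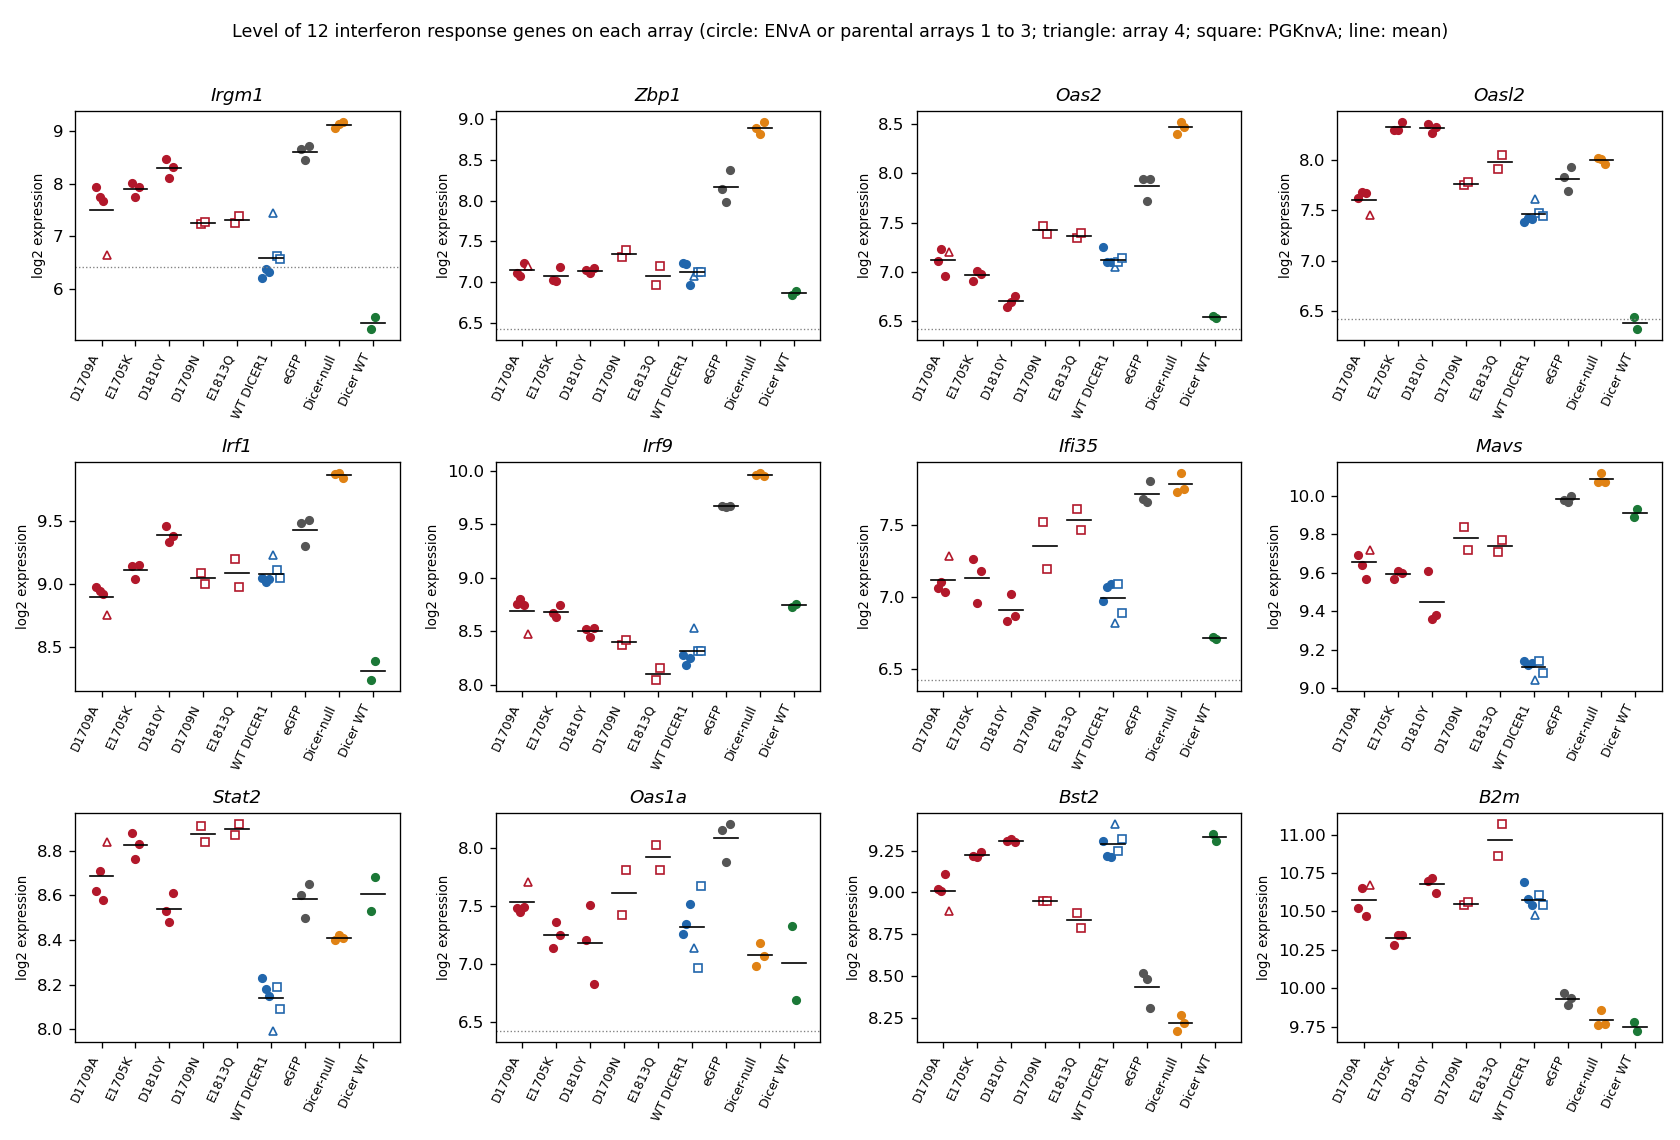
log2 expression of 12 genes (1 panel each) on every array of the 9 groups; circles are ENvA or parental arrays 1 to 3, triangles are arrays 4, squares are PGKnvA arrays, the short lines are group means and the dotted line is the filter level of 6.42. Zbp1 lies between 8.82 and 8.97 in Dicer-null cells, Mavs lies lowest with wild-type DICER1 (9.04 to 9.14), and arrays 4 of D1709A and wild-type DICER1 depart in opposite directions for Irgm1.

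The eGFP vector in Dicer-null cells was set against the untransduced line to see what carrying a vector did to these genes. Oas1a, another dsRNA-activated OAS enzyme, read 8.16, 7.88 and 8.21 in eGFP cells, against 6.98, 7.18 and 7.07 in Dicer-null cells (change 1.01, SE 0.171, adjusted p = 2.34e-05), with every eGFP array above every Dicer-null array, as 25.1% of all tested genes had. Zbp1 was lower, at 8.14, 7.98 and 8.38 in eGFP cells, against 8.89, 8.82 and 8.97 in Dicer-null cells (change -0.72, SE 0.0870, adjusted p = 1.63e-07). Oas2 also was lower, at 7.94, 7.72 and 7.94 in eGFP cells, against 8.40, 8.52 and 8.47 in Dicer-null cells (change -0.60, SE 0.0731, adjusted p = 2.06e-07), and 33.5% of all tested genes, these 2 among them, had every eGFP array below every Dicer-null array. Of the 21 genes 4 were higher and 7 lower, while 47.6% of all tested genes were called, 20.2% higher and 27.4% lower. Irf1 (-0.43), Tap1 (-0.35), Irf9 (-0.30), Trim25 (-0.22) and Oasl2 (-0.18) were lower too, and Ddx58 (0.42), Bst2 (0.22) and Stat2 (0.17) higher. Oas1a was the 1 gene of the 21 called with a change of at least 2-fold, against 1.91% of all tested genes. The calls for Stat2 and Oasl2 were lost in 5 of the 28 fits with 1 array left out each, with changes down to 0.14 for Stat2 and -0.11 for Oasl2.

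Wild-type DICER1 was set against the eGFP vector to see which of these genes changed when Dicer was returned to Dicer-/- cells. Genes that were high in Dicer-null cells fell, led by Irgm1, Irf9 and Zbp1, and the adaptor Mavs fell as well. Bst2 and B2m rose. In all, 12 of 21 genes were lower, 3 higher and 6 not called, while 59.5% of all tested genes were called, 28.7% lower and 30.8% higher. A change of at least 2-fold was called for 3 of the 21 (14.3%), against 3.73% of all tested genes. The median change was -0.26 among the 21 genes and 0.02 among all tested genes.

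With wild-type DICER1, Irgm1 lay between 6.21 and 7.45 with a median of 6.48, against 8.65, 8.45 and 8.72 with eGFP (change -2.01, SE 0.233, adjusted p = 4.82e-08). Without the arrays numbered 4 the change was -2.30. Irf9 lay between 8.18 and 8.53 (median 8.29) with wild-type DICER1, against 9.67, 9.66 and 9.67 with eGFP (change -1.36, SE 0.0694, adjusted p = 1.44e-14). Neither gene had an overlap between the groups, and the fall was 4.03-fold for Irgm1 and 2.56-fold for Irf9. Zbp1 lay between 6.97 and 7.24 (median 7.13) with wild-type DICER1, against 8.14, 7.98 and 8.38 with eGFP (change -1.04, SE 0.0814, adjusted p = 4.53e-11). Mavs lay between 9.04 and 9.14 (median 9.13), against 9.98, 9.97 and 10 with eGFP (change -0.87, SE 0.0509, adjusted p = 1.75e-13). All wild-type DICER1 arrays lay below all eGFP arrays for both genes.

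Oas1a lay between 6.97 and 7.67 (median 7.30) with wild-type DICER1, against 8.16, 7.88 and 8.21 with eGFP (change -0.77, SE 0.160, adjusted p = 1.95e-04). Oas2 lay between 7.05 and 7.25 (median 7.10), against 7.94, 7.72 and 7.94 with eGFP (change -0.74, SE 0.0684, adjusted p = 9.04e-10). Ifi35 lay between 6.82 and 7.09 (median 7.02), against 7.68, 7.66 and 7.80 with eGFP (change -0.72, SE 0.0892, adjusted p = 1.39e-07). All wild-type DICER1 arrays were below all eGFP arrays for these 3 genes, as for 26.7% of all tested genes. Bst2 lay between 9.21 and 9.41 (median 9.28) with wild-type DICER1, against 8.52, 8.48 and 8.31 with eGFP (change 0.85, SE 0.0567, adjusted p = 2.42e-12), and was among the 28.7% of all tested genes with every wild-type DICER1 array above every eGFP array. B2m rose by 0.64 and Oas3 by 0.29, and Stat2 (-0.44), Oasl2 (-0.36), Irf1 (-0.35), Adar (-0.26) and Tap1 (-0.23) fell. Ddx58, Eif2ak2, Trim25, Irf3, Oasl1 and Psmb9 were not called. Without the arrays numbered 4, Ddx58 (-0.17, adjusted p = 0.000824 in limma) and Trim25 (-0.1, adjusted p = 0.0389) were called lower.

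This comparison shares no array with that of the parental lines, but the 2 sets of calls are not independent. The first arrays of Dicer-null, Dicer WT and wild-type DICER1 are among those whose deviations cancel out. All groups also share 1 estimate of the spread. The calls are set against each other as a description. Of the 12 genes higher in Dicer-null than in Dicer WT cells, 9 (75%) were lower with wild-type DICER1 than with eGFP, and these were also 75% of the 12 genes lower with wild-type DICER1. Over all tested genes the same shares were 61.5% of 4283 and 65.8% of 4006. Of the 4 genes lower in Dicer-null cells, 1 (Bst2, 25%) was higher with wild-type DICER1, which is 33.3% of the 3 genes higher there, against 61.1% of 3792 and 53.8% of 4301 over all tested genes. Stat2 and Adar were lower in both comparisons, in Dicer-null cells against Dicer WT cells and with wild-type DICER1 against eGFP.

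**Figure D3:**
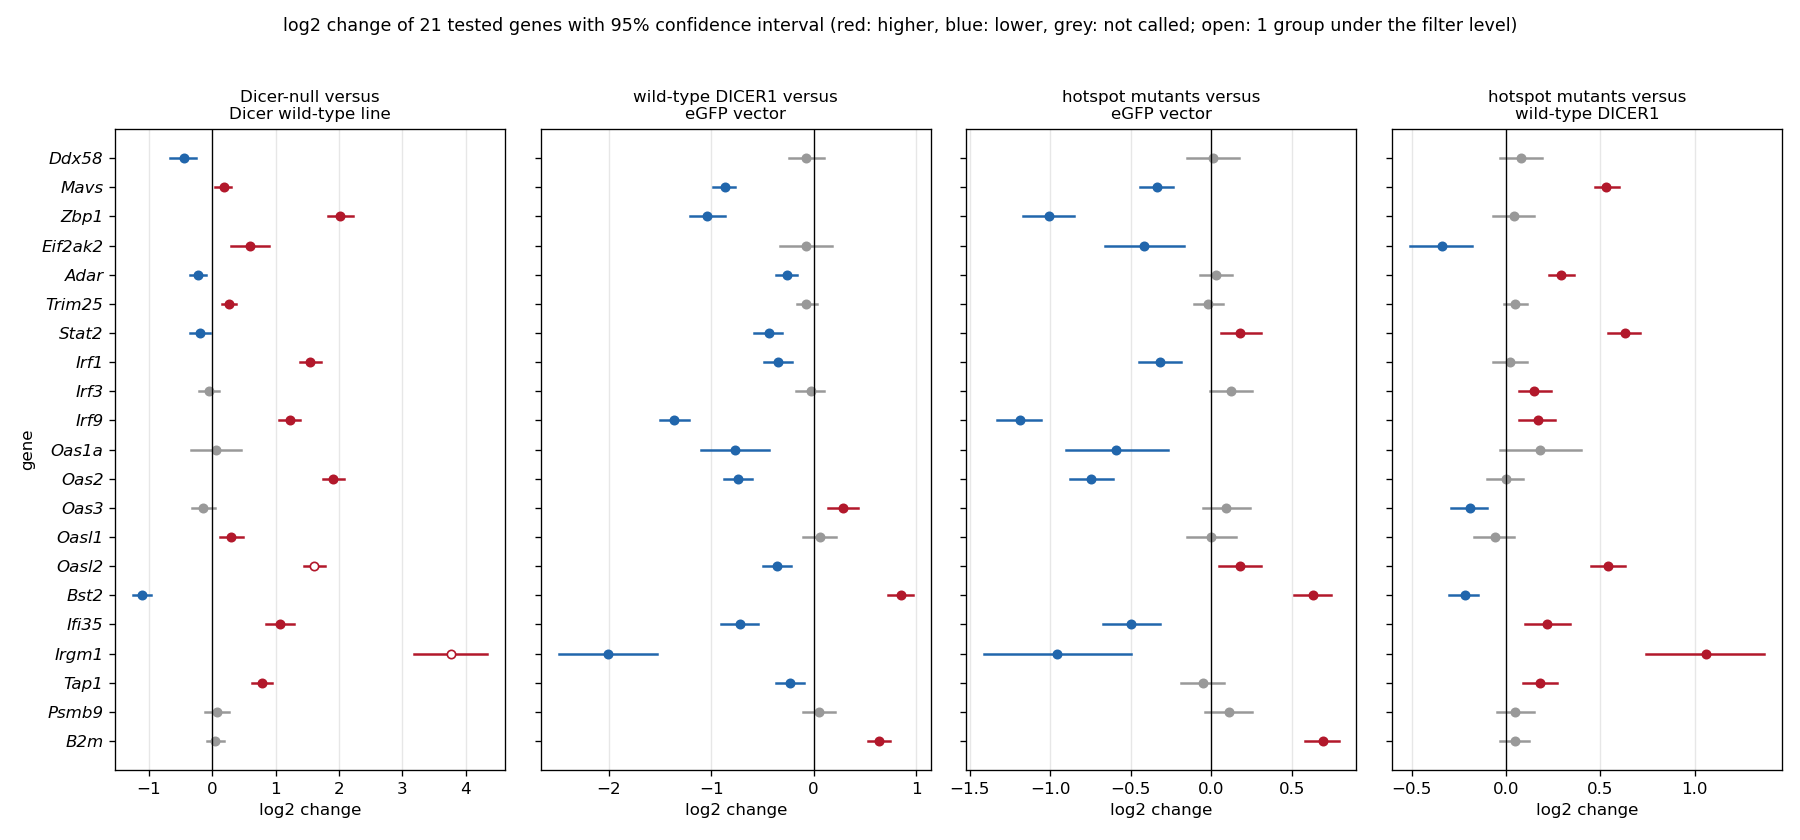
log2 change of the 21 tested genes (rows) in 4 comparisons (panels, each with its own axis range), with 95% confidence intervals; red is called higher, blue called lower and grey not called at an adjusted p under 0.05, and open points have 1 group mean under the filter level. Irf9 and Zbp1 fall by over 1 both with wild-type DICER1 (-1.36 and -1.04) and with the mutants (-1.19 and -1.01) against eGFP.

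The mean of the 5 mutant groups was then set against the eGFP vector, which asks what mutant DICER1 still changed. This comparison uses the same eGFP arrays as the last, so the 2 are given side by side and not as independent results. Irf9 lay between 8.04 and 8.80 (median 8.52) on the 14 mutant arrays, against 9.67, 9.66 and 9.67 with eGFP (change -1.19, SE 0.0662, adjusted p = 1.02e-13). Zbp1 lay between 6.96 and 7.39 (median 7.16), against 8.14, 7.98 and 8.38 with eGFP (change -1.01, SE 0.0776, adjusted p = 5.33e-11). Both genes had every mutant array below every eGFP array, as 13.9% of all tested genes had. Oas2 lay between 6.65 and 7.47 (median 7.06), against 7.94, 7.72 and 7.94 with eGFP (change -0.75, SE 0.0652, adjusted p = 5.03e-10), also without overlap. Irgm1 lay between 6.64 and 8.47 (median 7.74), against 8.65, 8.45 and 8.72 with eGFP (change -0.96, SE 0.222, adjusted p = 7.58e-04), and here the groups overlapped.

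Oas1a overlapped too, between 6.83 and 8.03 (median 7.47) with the mutants, against 8.16, 7.88 and 8.21 with eGFP (change -0.59, SE 0.153, adjusted p = 0.00216). B2m lay between 10.28 and 11.07 (median 10.59) on the mutant arrays, against 9.97, 9.89 and 9.94 with eGFP (change 0.69, SE 0.0513, adjusted p = 3.04e-11). Bst2 lay between 8.79 and 9.32 (median 9.06), against 8.52, 8.48 and 8.31 with eGFP (change 0.63, SE 0.0541, adjusted p = 4.11e-10). For these last 2 genes all mutant arrays were above all eGFP arrays, as for 15.3% of all tested genes. Ifi35 lay between 6.83 and 7.61 (median 7.14) with the mutants, against 7.68, 7.66 and 7.80 with eGFP (change -0.50, adjusted p = 2.11e-05). Eif2ak2 (-0.42), Mavs (-0.34) and Irf1 (-0.32) fell, and Stat2 (0.18) and Oasl2 (0.18) rose. In all, 9 of the 21 genes fell, 4 rose and 8 were not called, while 53.1% of all tested genes were called, 23.8% lower and 29.3% higher. A change of at least 2-fold was called for Irf9 and Zbp1, 2 of the 21 (9.52%), against 2.46% of all tested genes. The calls for Stat2 and Oasl2 were lost without the second eGFP array (0.14, adjusted p = 0.0951, and 0.12, adjusted p = 0.147).

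The hotspot mutants were last set against wild-type DICER1, which asks how cells with mutant and with wild-type protein differ. The sensing adaptor Mavs and the signalling factor Stat2 were higher on every mutant array than on any wild-type DICER1 array, which 8.97% of all tested genes were as well. Irgm1 and Oasl2 were higher with a spread between mutants, and Zbp1, Oas2 and Irf1 were not called. In all, 9 of 21 genes were higher, 3 lower and 9 not called, while 60.1% of all tested genes were called, 32.3% higher and 27.7% lower. The median change was 0.08 among the 21 genes and 0.01 among all tested genes, and 1 gene, Irgm1, was called with at least a 2-fold change, against 0.731% of all tested genes.

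Mavs lay between 9.36 and 9.84 (median 9.63) on the 14 mutant arrays, against 9.04 to 9.14 (median 9.13) on the 6 wild-type DICER1 arrays (change 0.53, SE 0.0331, adjusted p = 6.92e-13). Stat2 lay between 8.48 and 8.92 (median 8.80) with the mutants, against 7.99 to 8.23 (median 8.17) with wild-type DICER1 (change 0.63, SE 0.0419, adjusted p = 2.82e-12). Neither gene depended on the arrays numbered 4, without which the changes were 0.52 for Mavs and 0.59 for Stat2. In both genes the wild-type DICER1 mean (9.11 for Mavs, 8.14 for Stat2) also lay below that of Dicer WT cells (9.91 and 8.60). The mutant group means ran from 9.45 to 9.78 for Mavs and from 8.54 to 8.89 for Stat2. Mutants were not tested against Dicer WT cells. Oasl2 lay between 7.46 and 8.38 (median 7.98) with the mutants, against 7.39 to 7.61 (median 7.44) with wild-type DICER1 (change 0.54, SE 0.0429, adjusted p = 6.97e-11). Irgm1 lay between 6.64 and 8.47 (median 7.74) with the mutants, against 6.21 to 7.45 (median 6.48) with wild-type DICER1 (change 1.06, SE 0.152, adjusted p = 1.43e-06). Without the arrays numbered 4, left out after seeing the data, the change of Irgm1 was 1.28. The highest of the other wild-type DICER1 arrays read 6.62 and the lowest of the other mutant arrays 7.23. How many of all tested genes are as separate on these arrays was not counted.

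Smaller rises were called for Adar (0.29), Ifi35 (0.22), Tap1 (0.18), Irf9 (0.17) and Irf3, the factor that RIG-I signalling activates (0.15). Eif2ak2 (-0.34), Bst2 (-0.22) and Oas3 (-0.19) were lower. Zbp1 differed by 0.04 with an interval of -0.07 to 0.15, Oas2 by 0.00 with an interval of -0.10 to 0.09 and Irf1 by 0.02 with an interval of -0.07 to 0.11. The mutant and wild-type DICER1 arrays overlapped for all 3 genes. Ddx58 and Trim25 passed the threshold without the arrays numbered 4 (0.16, adjusted p = 7.16e-06, and 0.07, adjusted p = 0.0187).

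The array sets were also taken apart: ENvA arrays 1 to 3, ENvA array 4 (D1709A alone) and PGKnvA arrays. Of the 21 genes, 8 had the same sign of mutant minus wild-type DICER1 in all 3 sets. The share over all tested genes was not counted, so this count is a description only. Some of the 8 differed little, such as Oasl1 (-0.1, -0.01 and -0.02). Mavs was 0.43, 0.68 and 0.65 higher in these sets, Stat2 0.48, 0.85 and 0.74, and Adar 0.44, 0.18 and 0.13. Irgm1 differed by 1.68, -0.81 and 0.69, and Oasl2 by 0.69, -0.15 and 0.41, so the single pair of arrays numbered 4 went against the other sets. Eif2ak2 differed by -0.67, 0.57 and -0.14. Irf9 was 0.41 higher within ENvA arrays 1 to 3 and -0.06 different within PGKnvA arrays, while Ifi35 differed by -0.01 and 0.46 in these sets. The difference between the PGKnvA and the ENvA mutants in their change from wild-type DICER1 was called for 7 of the 21 genes, 4 higher and 3 lower, against 18% of all tested genes, and vector and mutant cannot be told apart in it.

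**Figure D4:**
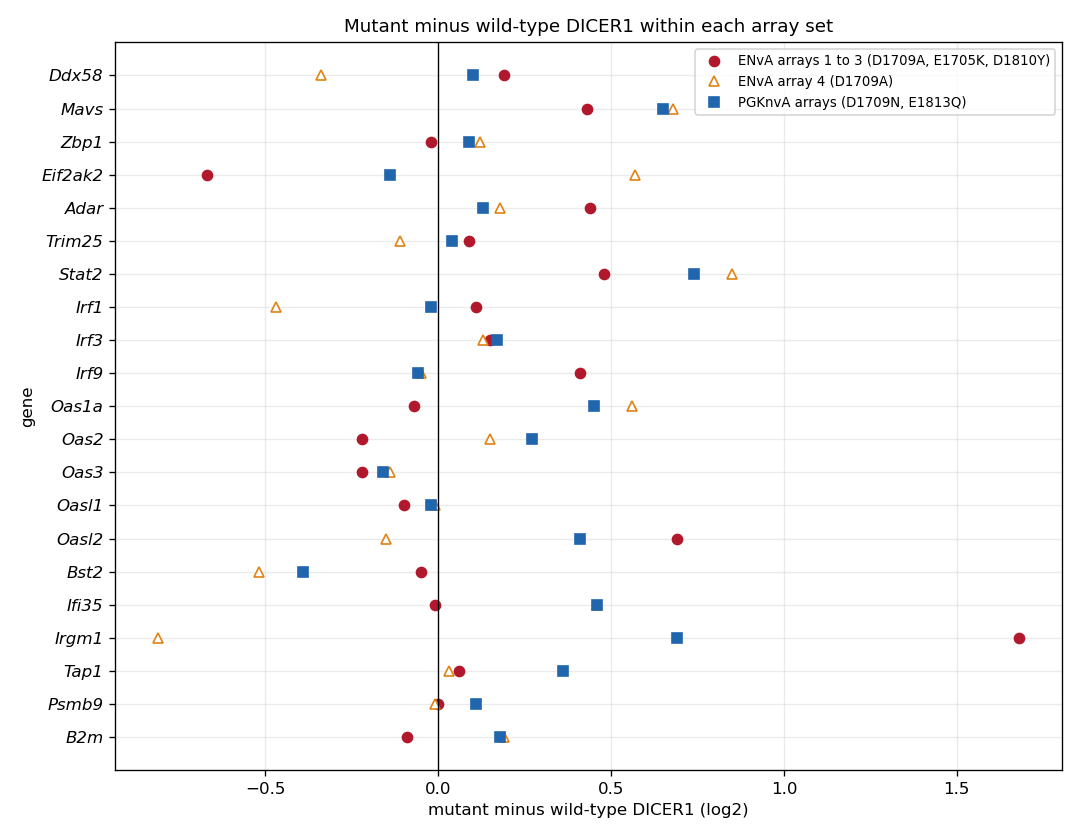
Mutant minus wild-type DICER1 (log2) of the 21 tested genes within ENvA arrays 1 to 3, ENvA array 4 and the PGKnvA arrays. Mavs and Stat2 lie above 0 in all 3 sets, while Irgm1 lies at 1.68 and 0.69 in the first and last set and at -0.81 for array 4.

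Each mutant was also set against wild-type DICER1 on its own, with the same wild-type arrays in every comparison. Mavs and Stat2 were called higher in all 5 mutants, 2 of 21 genes (9.52%), against 9.29% of all tested genes. Mavs was 0.34 (D1810Y) to 0.67 (D1709N) higher and Stat2 0.40 (D1810Y) to 0.76 (E1813Q) higher. D1709A had 7 genes higher and 3 lower (45.8% of all tested genes called), E1705K 7 and 2 (48%), and D1810Y 8 and 3 (53.7%). D1709N had 9 higher and 1 lower (40% of all tested genes called) and E1813Q 8 and 1 (40.6%). The count for D1709N was 4 in place of 10 without its first array and 5 without array 5 of wild-type DICER1.

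Irgm1 was higher by 0.90 in D1709A, 1.31 in E1705K and 1.70 in D1810Y, and differed by 0.65 in D1709N and 0.73 in E1813Q, where it was not called. In D1709A its change was 1.47 without the arrays numbered 4. Irgm1 read 7.23 and 7.27 in D1709N and 7.25 and 7.39 in E1813Q. Array 4 of wild-type DICER1 read 7.45, and its other arrays 6.21 to 6.62. The SE was 0.305 in these 2 mutants, to which the vector term adds. The missing calls are therefore not read as a difference between mutants. The PGKnvA and ENvA mutants did not differ in Irgm1 by a call (-0.61, adjusted p = 0.188 in limma). Oasl2 was 0.86 higher in both E1705K and D1810Y, 0.52 in E1813Q and 0.30 in D1709N, and was not called in D1709A (0.15). Without the arrays numbered 4 it was called there too, at 0.24 (adjusted p = 0.00133). Adar was called higher in 4 mutants, from 0.22 in D1709N to 0.50 in D1810Y, and not in E1813Q (0.05).

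Other genes differed in direction between mutants. Irf1 was higher in D1810Y (0.31) and lower in D1709A (-0.18, and -0.09 with adjusted p = 0.201 without the arrays numbered 4), Oas2 was higher in D1709N (0.30) and E1813Q (0.24) and lower in D1810Y (-0.41), and B2m was higher in E1813Q (0.39) and lower in E1705K (-0.25). Eif2ak2 was lower in D1810Y (-0.71) and E1705K (-0.47) and was not called in D1709A (-0.26). Without the arrays numbered 4 it was called lower in D1709A (-0.54, adjusted p = 7.28e-08 in limma). Without them Trim25 was called there too (0.11, adjusted p = 0.0209), and Ddx58 was 0.43 higher in place of 0.24. Oas1a was called in E1813Q alone of the 5 (0.60), and Bst2 was lower in D1709A (-0.28), D1709N (-0.33) and E1813Q (-0.46). Zbp1, Oasl1 and Psmb9 were called in no mutant.

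**Figure D5:**
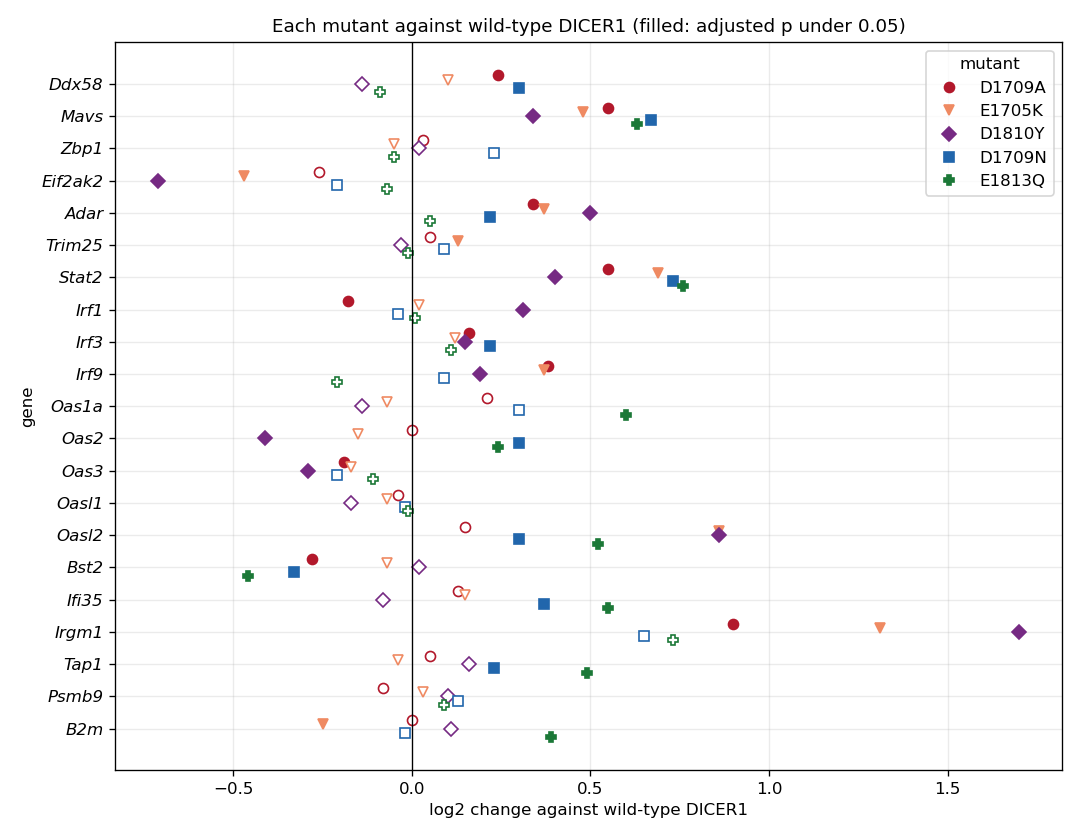
log2 change of the 21 tested genes in each of the 5 mutants against wild-type DICER1; filled symbols have an adjusted p under 0.05 and open ones do not. Mavs and Stat2 are filled and above 0 for all 5 mutants, and Irgm1 runs up to 1.70 in D1810Y.

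The 14 dim genes include the classical targets of an acute interferon response. Their means over all arrays lay between 4.23 and 6.38, and their group means between 4.13 and 6.80. Mx1 and Mx2, the dynamin-like antiviral GTPases, lay between 4.08 and 4.42 and between 4.68 and 5.26 on single arrays. Ifit1, which binds foreign RNA caps, averaged 6.70 in Dicer-null cells and 6.19 in Dicer WT cells. Rsad2 (viperin) averaged 6.41 in Dicer-null cells and 5.37 in Dicer WT cells, and 5.59 with wild-type DICER1 against 6.36 with eGFP. Ifih1, the gene of MDA5, averaged 5.71 in Dicer-null cells and 5.39 in Dicer WT cells. At such levels no size is given. When no filter was applied, 6 of the 14 were called higher in Dicer-null than in Dicer WT cells and none lower (Ifih1, Oas1b, Ifit1, Rsad2, Gbp3 and Psmb8), while 42.2% of all genes were called in that fit in either direction. With wild-type DICER1 against eGFP, Dhx58 was called higher and Oas1b, Ifit1, Rsad2 and Gbp3 lower, and with the mutants against wild-type DICER1 Ifit2 and Gbp3 were higher and Irf7 lower, while 44.2% and 46.1% of all genes were called in these fits. Ifit3, Mx1, Mx2, Usp18 and Ifi27 were called in none of these 3 comparisons.

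Of 56 further genes of the pathway, 44 were tested. These genes were chosen with earlier results of these data known. Their counts beside the shares of all tested genes are therefore a description and not a test. In Dicer-null against Dicer WT cells 27 of the 44 were higher and 1 lower (30.7% and 27.2% of all tested genes), among them Tapbp, which links class I MHC to the peptide transporter (1.88), and Parp12, an interferon-induced ADP-ribosyltransferase (1.80). Erap1, the peptidase that trims antigenic peptides, was higher as well, at 7.91 in Dicer-null cells and 6.07 in Dicer WT cells, a level under the filter. The Dicer WT means of Nmi (5.82) and Irf2 (6.35) lie under the filter level too. With wild-type DICER1 against eGFP 6 were higher and 24 lower (30.8% and 28.7% of all tested genes), led by Xaf1, an interferon-induced proapoptotic gene (-1.76), Erap1 (-1.39) and Tapbp (-1.30). With the mutants against eGFP 6 were higher and 20 lower (29.3% and 23.8%), and the same 3 genes led (-2.35, -1.10 and -1.08). With the mutants against wild-type DICER1 22 were higher and 7 lower (32.3% and 27.7%), with Pml (0.52) and Parp9 (0.51) higher and Xaf1 lower (-0.58). In eGFP against Dicer-null cells 8 were higher and 16 lower (20.2% and 27.4%), and Ube2l6, the ISG15-conjugating enzyme, had the change of largest size (-0.72).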

How the data were processed

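RNA of 28 mouse ES cell samples was measured on Affymetrix Mouse Gene ST arrays. The deposited values are log2 expression levels per probe set, made with RMA in Partek 6.6 per the submitters' processing notes. Groups came from the sample labels. Probe sets with 1 gene symbol (21789 of 35556; 1621 had several and 12146 none) gave 19938 genes, the probe set with the highest mean being kept. Genes with a mean under 6.42 were left out, leaving 13956. limma 3.58.1 in R 4.3.3 fitted the 9 group means and a term for the PGKnvA vector (18 residual degrees of freedom), with eBayes and a trend. Only wild-type DICER1 was in both vectors, so its arrays alone set the vector term. With all arrays their 2 means are equal within 7.5e-05, so the term adjusts almost nothing and adds to the standard error of the PGKnvA mutants. Genes were called at a Benjamini-Hochberg adjusted p under 0.05 over all tested genes, and calls were tested on simulated data. The precision is limited by the 2 to 6 arrays per group. Array medians lay between 7.14 and 7.27.

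The members, the further pathway genes and the marker lists (ES cells, fibroblasts or feeder cells, leukocytes and macrophages, extraembryonic endoderm) were chosen with earlier results of these data known. Given in full in each of the 5 main comparisons were the called members with a log2 change of at least 0.5 in size, at most 8 by size, and up to 3 called pathway genes by size were named. Alternatives were no filter, median centring, no mean-variance trend, no vector term, the mean of all probe sets of a gene, replicate and array-set blocks and leaving out each array. Fits without the arrays numbered 4, or with ENvA arrays 1 to 3 and the parental lines only, were chosen after seeing the data. On simulated data for the mutants against wild-type DICER1 (13956 genes), 82% of genes changed by 0.25 and 100% of those changed by 0.5 were recovered. There 50 genes were changed at each size and 13756 left unchanged, while the real comparison called 60.1% of all tested genes. The recovery holds for that setting and does not measure sensitivity in the real data.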

Additional observations from a re-analysis of the deposited data

Results flagged for a closer look

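Of 70 groups of 4 to 10 arrays tested for a single departing array, 8 had one. The nominal rate is about 1 in 20, but the deposited arrays are not independent, so it is no baseline here. The share flagged over all tested genes was not counted. On array 4 of D1709A, Eif2ak2 read 8.75 against 8.16 to 8.21 on its other arrays, and Oas1a 7.71 against 7.45 to 7.49. On array 4 of wild-type DICER1, Eif2ak2 read 8.18 against 8.56 to 8.77 and Irgm1 7.45 against 6.21 to 6.62. On that array Irf9 read 8.53 against 8.18 to 8.31, and Oasl2 7.61 against 7.39 to 7.47. These 6 values lie on the 2 arrays whose deviations mirror each other. The dim genes gave the others: Mx2 read 4.81 on array 3 of D1709A against 4.92 to 4.93, and Rsad2 read 5.53 on array 3 of wild-type DICER1 against 5.59 to 5.63.

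The change from wild-type DICER1 differed between mutants in the PGKnvA and in the ENvA vector for 7 of the 21 genes, while 18% of all tested genes were called. In limma, Oas2 was 0.46 higher in the PGKnvA mutants (7.40) than in the ENvA mutants (6.93, adjusted p = 0.00182). Ifi35 was 0.39 higher (7.44 against 7.05, adjusted p = 0.029), Tap1 0.31 higher (7.61 against 7.31, adjusted p = 0.0244) and B2m 0.23 higher (10.76 against 10.53, adjusted p = 0.0318). Irf9 differed by -0.37 (8.25 against 8.62, adjusted p = 0.00895), Bst2 by -0.29 (8.89 against 9.18, adjusted p = 0.0131) and Adar by -0.27 (8.62 against 8.89, adjusted p = 0.0101). No mutant was made in both vectors, so vector and mutant cannot be told apart.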

How the results depend on the processing

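The counts of called genes in the 5 main comparisons and for each mutant against wild-type DICER1 stayed within 1.5 times of those given under every alternative other than leaving out 1 array. Leaving out each of the 28 arrays gave 15 to 16 called genes for Dicer-null against Dicer WT cells, 9 to 13 for eGFP against Dicer-null, 15 to 16 for wild-type DICER1 against eGFP, 12 to 14 for the mutants against eGFP and 12 to 13 for the mutants against wild-type DICER1. It gave 7 to 11 for D1709A, 4 to 11 for D1709N, 8 to 11 for E1705K, 9 to 12 for D1810Y and 7 to 11 for E1813Q. The 7 genes that differed between PGKnvA and ENvA mutants were 13 with no vector term, 13 with a replicate block, 13 with the array set as a random block and 13 without both arrays numbered 4. Leaving out 1 array gave 3 to 12, with 12 without array 4 of wild-type DICER1 and 3 without array 5 or 6. Without array 5 or 6, 1 PGKnvA array of wild-type DICER1 is left to set the vector term. The cause of these changes in count was not tested. Ifi35 in the mutants against wild-type DICER1 reversed to -0.01 when ENvA arrays 1 to 3 and the parental lines were fitted alone, and there Bst2 (-0.05, adjusted p = 0.262), Tap1 (0.06, adjusted p = 0.37) and, in the mutants against eGFP, Stat2 (0.09, adjusted p = 0.0937) were no longer called in limma. With no filter Stat2 and Oasl2 were not called in eGFP against Dicer-null cells (adjusted p = 0.0539 and 0.0565 in limma). With the replicate block the 5 main counts were 15, 9, 15, 13 and 12. Deviations of arrays with the same number correlated above 0.1 in 20 of 88 pairs. All 3 pairs did so between E1705K and eGFP (0.287, 0.655 and 0.317) and between E1705K and D1810Y (0.467, 0.684 and 0.211), so the numbers may pair these arrays, and not between the other groups with 3 shared numbers. Median centring moved the share of higher calls among all called genes to 64.4% in place of 53% for Dicer-null against Dicer WT cells, and to 30.5% in place of 42.5% for eGFP against Dicer-null. After it, Stat2 and Adar were no longer called in Dicer-null against Dicer WT cells (adjusted p = 0.21 and 0.0516 in limma), nor Stat2 in eGFP against Dicer-null cells (0.165) or Oasl2 in the mutants against eGFP (0.0625).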
